A study of Tetranychus cinnabarinus with 8 samples.

Results

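The 117 genes described here had a lower read level in all 4 libraries from curcumin-treated mites than in any of the 4 libraries from solvent-treated mites. They were selected on exactly that difference, from 7961 genes that met the minimum length, read number and abundance given below, of 15764 genes listed in at least 1 library. Most of the differences were small. The mean level in curcumin libraries was a median of 83.1% of the mean level in solvent libraries over the 117 genes, with a range of 43.1% to 93.9%, against a median of 98.0% over the 7961 genes. Only tetur01g13260 was below 50% of its solvent level.

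RNA-Seq was run on the carmine spider mite Tetranychus cinnabarinus, a plant-feeding mite, as 2-day old adult females of a susceptible strain reared on cowpea. The mites were sprayed with curcumin at 2.64 mg/mL, the concentration the study took as its median lethal dose, or with the solvent alone, a mixture of Tween and acetone in water that the curcumin spray also held. Live mites were collected at 24 h or 48 h, which gives 4 groups (curcumin 24 h, curcumin 48 h, solvent 24 h and solvent 48 h) of 2 libraries each. A replicate pooled the mites of several dishes of an independent experiment, the study calls the 2 replicates of a group biological, and mites that had died were not collected.

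Curcumin is a yellow polyphenol of turmeric rhizomes with known activity against mites, and it is known in other animals to act on many proteins at once. An RNA-Seq library made from whole mites sums the transcripts of gut, ovary, nervous system, cuticle-forming epidermis and developing eggs. A gene's share of the reads in such a library therefore depends on its transcription, on the decay of its transcript and on the make-up of the animals, and fewer cells of a type cannot be told apart from less RNA per cell. The reads were mapped to gene models of Tetranychus urticae, a closely related spider mite. In an identifier such as tetur01g13260, the digits before the g are the scaffold of that genome and those after it number the genes along the scaffold.

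The labels name adult tissue, and vitellogenin 1 (tetur39g00730), a yolk protein precursor that marks egg-making females, was listed in all 8 libraries. Its RPKM at 24 h was 6.21 and 9.66 in curcumin libraries, against 2.02 and 1.59 in solvent libraries. At 48 h the order was reversed, with 2.69 and 2.69 in curcumin libraries, against 23.9 and 10.9 in solvent libraries. RPKM is the authors' read level per kilobase of gene model, scaled to the mapped reads. Vitellogenin 1 was the one marker fixed for these animals. Its level was low in most libraries, so its listing alone does not show that the mites made eggs. The estimated reads summed to 8033325 in the smallest library and 8617973 in the largest, and 14296 to 14777 genes were listed per library. TMM factors, edgeR's correction for libraries in which a few genes take a large share of the reads, ran from 0.968 to 1.003 in curcumin libraries and from 0.933 to 1.051 in solvent libraries. The library solvent 48 h replicate 1 had the lowest factor, 0.933, and its part in the results is given where it bears on them.

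The members were chosen by CPM values, the estimated reads of a gene divided by the sum of estimated reads in its file and scaled to the same total in every library. Of the genes listed, 15666 had a model longer than the shortest model of each of the 8 lists, 8032 of these had 50 or more reads in each library, and 7961 of these had a mean RPKM under 1000 in solvent libraries. In 122 of these 7961 genes, 1.53%, the highest curcumin library lay below the lowest solvent library. The rule then left out 5 genes by name, all of them among the 122. It also left out genes with a 1.5-fold gap between the solvent pairs of 24 h and 48 h and genes with the same reads as another gene, and neither condition removed any. All 117 members passed the filter on low counts used for the tests below. The opposite order, with the lowest curcumin library above the highest solvent library, was met by 99 of the 7961 genes, 1.24%. Whether either share exceeds the one that differences between libraries unrelated to curcumin would give was not tested.

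The curcumin against solvent difference of the 117 genes is a description with no test, since it chose them. It was measured as the log2 ratio of mean CPM, curcumin over solvent, over both times. The ratio had a median of −0.27, with quartiles of −0.37 and −0.20 and a range of −1.22 to −0.09, and the median over the 7961 genes was −0.03. In 14 genes the ratio was under −0.5, in 35 it was between −0.5 and −0.3, in 39 between −0.3 and −0.2, and in 29 it was −0.2 or above. A ratio this low was not particular to the 117 genes. In 505 of the 7961 genes, 6.34%, the ratio was below that of the median member, and 447 of these 505 genes were not members. In 442 of the 447 a curcumin library overlapped the solvent libraries, and the other 5 were the genes left out by name. The members are thus genes with small differences and little spread, and the rule favours little spread since it compares these same CPM values. The SD of log2 CPM over the 4 curcumin libraries had a median of 0.102 in the members and 0.167 in the 7961 genes, and over the 4 solvent libraries the medians were 0.102 and 0.175.

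**Figure D1:**
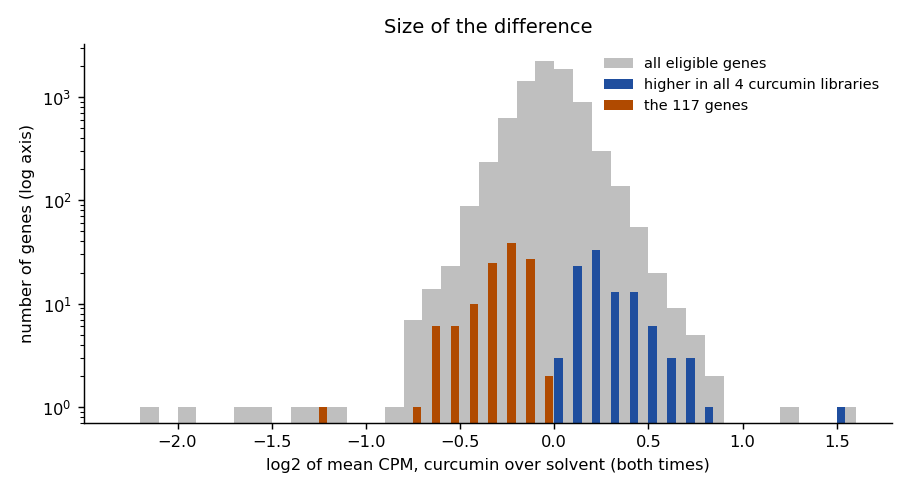
The number of genes (log axis) by the log2 ratio of mean CPM, curcumin over solvent, in bins of 0.1, for all 7961 eligible genes in grey, the 99 genes higher in all 4 curcumin libraries in blue and the 117 genes in orange. Most of the 117 genes fall between −0.5 and −0.1, where other eligible genes outnumber them.

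The member with the lowest ratio was tetur01g13260, a short gene model of 306 bp. Its CPM was 16.6 and 14.7 in the curcumin libraries of 24 h and 7.09 and 14.4 in those of 48 h, against 34.9 and 23.8 in the solvent libraries of 24 h and 34.8 and 29.1 in those of 48 h. All 4 curcumin libraries were low, and the lowest solvent library, solvent 24 h replicate 2, was 43.4% above the highest curcumin library. The curcumin libraries averaged 13.2 ± 4.19 CPM and the solvent libraries 30.7 ± 5.30 CPM (SD, n = 4 each, both times together), a level 2.32-fold lower in curcumin. The library curcumin 48 h replicate 1 was the lowest of the 8, with 58.7 estimated reads on the gene. The log2 ratio was −0.91 at 24 h and −1.57 at 48 h. The gene is described as a hypothetical protein in the study's supplementary list of genes changed at the later time, and it was the only member in either of its lists. The list of 24 h held 0 of the 117 members and 0.176% of the 7961 genes, and the list of 48 h held 1 member, 0.855%, and 0.188% of the 7961 genes. The study chose these lists on the same libraries.

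The second in size was tetur15g00370, with a model of 389 bp. Its CPM was 9.76, 9.24, 8.03 and 12.3 in the curcumin libraries, in the order 24 h replicates 1 and 2 and 48 h replicates 1 and 2, against 14.9, 13.8, 17.2 and 19.1 in the solvent libraries in the same order, which holds for every gene below. The curcumin 48 h libraries lay well apart and the solvent values were higher at 48 h than at 24 h, and the log2 ratio was −0.60 at 24 h and −0.84 at 48 h.

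The gene tetur01g03160, of moderate level, was clearly separated. Its CPM was 54.7, 56.9, 55.5 and 50.3 in curcumin libraries, against 94.5, 86.5, 79.7 and 91.1 in solvent libraries. The 4 curcumin libraries lay close together, and the lowest solvent library was 1.40 times the highest of them. The means were 54.4 ± 2.83 CPM in curcumin and 87.9 ± 6.42 CPM in solvent libraries (SD, n = 4 each). The log2 ratio was −0.70 at 24 h and −0.69 at 48 h. The gap between the nearest pair of libraries was 5.55 times its counting standard error, the widest by that measure of all members.

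In tetur28g01960 and tetur08g00390 the lower values came mainly at 48 h. The CPM of tetur28g01960 was 17.5, 19.1, 11.3 and 15.3 in curcumin libraries, against 21.4, 25.9, 22.3 and 31.4 in solvent libraries, with log2 ratios of −0.38 at 24 h and −1.02 at 48 h. The CPM of tetur08g00390 was 26.7, 20.7, 17.9 and 18.2 in curcumin libraries, against 30.7, 29.8, 28.0 and 38.2 in solvent libraries, with log2 ratios of −0.35 and −0.88. In both genes the solvent 48 h replicate 2 library was the highest of the 8.

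The reverse held in tetur32g01270. Its CPM was 11.7, 11.2, 10.1 and 11.9 in curcumin libraries, against 16.2, 26.9, 14.0 and 12.9 in solvent libraries. Its log2 ratio was −0.91 at 24 h, where solvent 24 h replicate 2 was a single high library, and −0.29 at 48 h. The other solvent libraries lay at 12.9 to 16.2 CPM.

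The other 4 of the 10 lowest ratios belonged to tetur05g00780, tetur24g00220, tetur03g04460 and tetur84g00040. The CPM of tetur05g00780 was 6.15, 10.2, 10.3 and 7.01 in curcumin libraries, against 11.3, 13.7, 11.3 and 14.8 in solvent libraries, and that of tetur24g00220 was 10.1, 9.0, 8.63 and 9.48, against 12.9 to 16.8. The spread within curcumin was wide in tetur05g00780 and narrow in tetur24g00220, whose lowest solvent library was 28.5% above its highest curcumin library. The CPM of tetur03g04460 was 30.5, 37.6, 43.3 and 38.7 in curcumin libraries, against 44.1, 55.4, 59.6 and 64.7 in solvent libraries, and that of tetur84g00040 was 13.6, 13.4, 13.0 and 9.23, against 16.1 to 19.6. In tetur03g04460 both treatments were higher at 48 h than at 24 h, and its nearest libraries, curcumin 48 h replicate 1 and solvent 24 h replicate 1, differed by 1.93%. The log2 ratios of these 4 genes were −0.60, −0.60, −0.58 and −0.56.

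**Figure D2:**
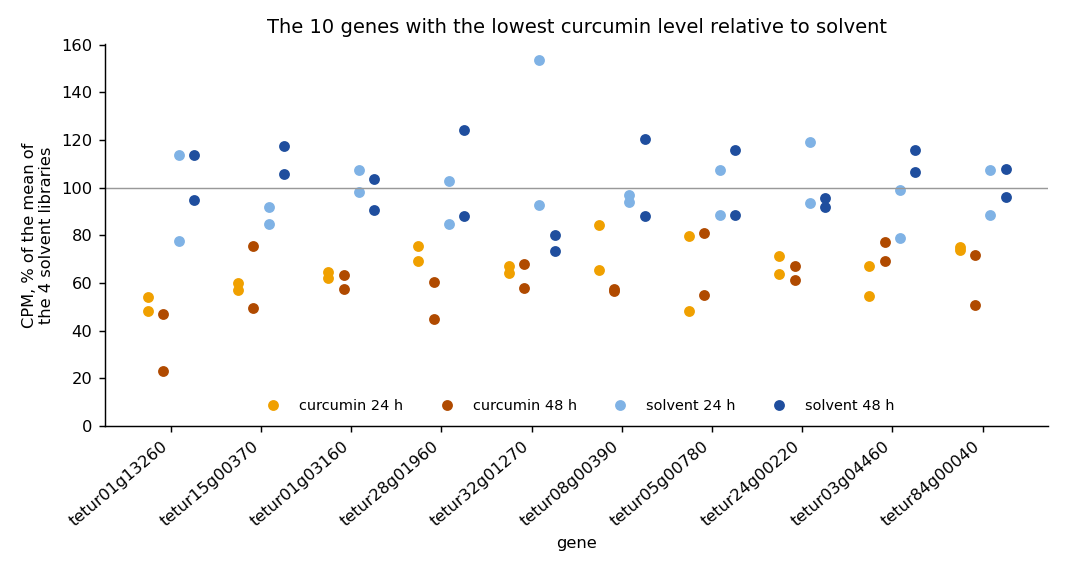
CPM in each library as a percentage of the mean of the 4 solvent libraries, for the 10 genes with the lowest ratio of mean CPM, with 1 point per library, curcumin in orange and brown and solvent in light and dark blue. In tetur01g13260, tetur01g03160 and tetur24g00220 a clear gap separates the treatments, and in tetur03g04460 and tetur08g00390 the nearest libraries almost touch.

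In many members the treatments were separated by less than the error of counting reads. The lowest solvent library was within 5% of the highest curcumin library in 79 of the 117 genes, within 1% in 26, and at least 10% above it in 15. It was at least 20% above it in 4 genes, tetur01g13260, tetur01g03160, tetur24g00220 and tetur21g01160. The last of these had a CPM of 6.48, 6.52, 6.91 and 6.04 in curcumin libraries, against 8.81, 8.59, 9.65 and 9.28 in solvent libraries. The gap between the nearest libraries was wider than its own counting standard error in 22 genes and its 95% counting interval excluded 0 in 5, which were tetur01g03160, tetur11g01700, tetur28g01250, tetur01g13260 and tetur01g03900. The counting error treats reads as independent and covers counting alone. Members had a median of 255 reads in their lowest library, with a minimum of 52.1.

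The members at the edge of the rule show how narrow it was. In tetur08g08339 the highest curcumin library and the lowest solvent library both stood at 62.6 CPM, and in tetur19g02560 they stood at 56.06 and 56.10 CPM, and in tetur06g06490 at 17.77 and 17.79 CPM. Just outside it, tetur07g03420 had 40.11 CPM in its highest curcumin library and 40.04 CPM in its lowest solvent library, tetur06g06658 had 23.44 and 23.39 CPM, and tetur01g04870 had 310.2 and 309.5 CPM. The log2 ratios of the 3 genes outside, −0.35, −0.37 and −0.26, were lower than the −0.15, −0.21 and −0.29 of the 3 genes inside in all but one pairing, that of tetur01g04870 with tetur06g06490.

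One library set the lower limit of the solvent group more often than the others. Solvent 48 h replicate 1 was the lowest solvent library in 53 of the 117 genes, 45.3%, and in 51.2% of the 7961 genes. The other solvent libraries were lowest in 12.0% to 24.8% of the members. The highest curcumin library was spread more evenly, with 20.5% to 28.2% of the members for each of the 4. When the rule was applied without solvent 48 h replicate 1, an alternative chosen after seeing the data, it was met by 831 genes, and without any one of the other libraries by 156 to 252 genes. A rule over 7 libraries is easier to meet by construction, so the comparison that counts is among the 8 libraries left out.

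**Figure D3:**
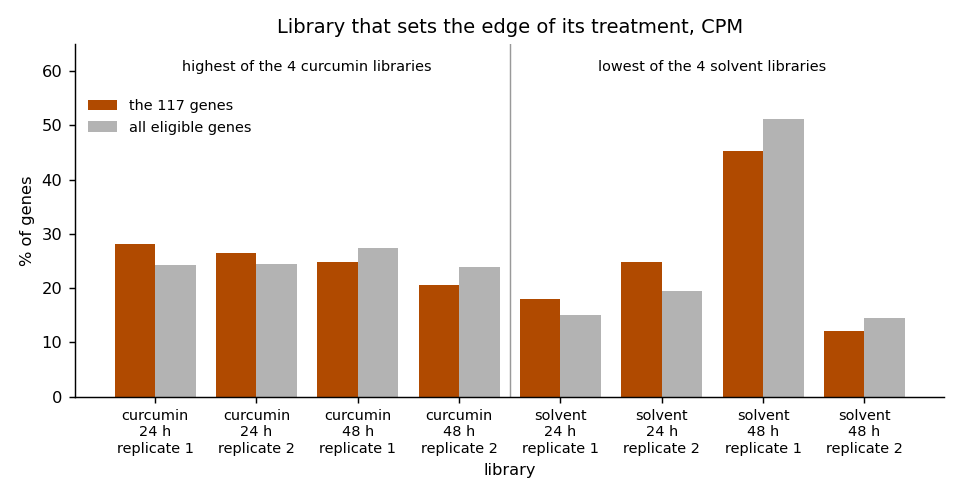
The percentage of the 117 genes (orange) and of all 7961 eligible genes (grey) in which each library had the highest CPM of the 4 curcumin libraries (left) or the lowest CPM of the 4 solvent libraries (right). Solvent 48 h replicate 1 was lowest in 45.3% of the 117 genes and 51.2% of the eligible genes, and the 4 curcumin libraries shared the highest place about evenly.

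Membership depended on how the libraries were scaled. Of the 117 genes, 62 were still lower in every curcumin library after CPM was scaled by TMM factors, 60 after division by DESeq2 size factors, and 84 in the deposited RPKM. In 60 genes, 51.3%, the treatments stayed apart under all 4 scalings, and in 33 genes they did so under CPM alone. The 60 genes had a median log2 ratio of −0.35, and the other 57 one of −0.21. Of the 10 lowest members 9 were among the 60, and the exception was tetur03g04460, which stayed apart in RPKM only. Of the 49 genes with a ratio under −0.3, 35 were among the 60, and of the 29 genes at −0.2 or above, 3 were. Over the 7961 genes the lower and higher orders were met by 112 and 89 genes under TMM, by 108 and 94 under DESeq2 size factors, and by 103 and 106 in RPKM. More genes met the lower than the higher order under CPM, TMM and size factors, and in RPKM it was the other way round.

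The next genes are the most abundant members. By mean RPKM in solvent libraries the members ran from 1.27 to 875.5 with a median of 21.4, against a median of 17.2 over the 7961 genes, and 13 members, 11.1%, were at 100 RPKM or more, against 9.25% of the 7961 genes. The most abundant was tetur15g02720, with a model of 261 bp. Its RPKM was 828, 728, 814 and 827 in curcumin libraries, against 849, 868, 859 and 925 in solvent libraries, and its log2 ratio in CPM was −0.15. It stayed apart in RPKM but not under TMM or size factors.

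The next, tetur03g08360, had a model of 210 bp and an RPKM of 561, 706, 580 and 529 in curcumin libraries, against 695, 855, 949 and 922 in solvent libraries. In RPKM the libraries overlapped, since curcumin 24 h replicate 2 was above solvent 24 h replicate 1, while in CPM the same libraries stood at 199.8 and 202.4. Its log2 ratio in CPM was −0.55.

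The third in abundance, tetur11g01700, had a model of 2286 bp and separated well. Its CPM was 976, 934, 769.6 and 739.7 in curcumin libraries, against 1279, 1247, 1060 and 1213 in solvent libraries, and its RPKM was 218 to 293 against 319 to 374. Both curcumin libraries of 48 h were the lowest of the 8, and the lowest solvent library was solvent 48 h replicate 1. The means were 854.9 ± 118 CPM in curcumin and 1199 ± 97.0 CPM in solvent libraries (SD, n = 4 each), with a log2 ratio of −0.40 at 24 h and −0.59 at 48 h. The nearest libraries were 8.58% apart, which was 5.34 counting standard errors, and the gene stayed apart under all 4 scalings.

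The gene tetur28g01250 behaved alike at both times. Its CPM was 353, 355, 388 and 317 in curcumin libraries, against 433, 454, 421.5 and 450.3 in solvent libraries, with log2 ratios of −0.33 at 24 h and −0.31 at 48 h. In tetur21g02210 the difference was larger but the edge was thin. Its CPM was 201.7, 227.1, 196 and 187 in curcumin libraries, against 336, 297, 227.4 and 286 in solvent libraries, so that curcumin 24 h replicate 2 and solvent 48 h replicate 1 were nearly equal, and its log2 ratio was −0.50.

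The other 5 of the 10 most abundant members were tetur13g03300, tetur21g00570, tetur19g00940, tetur67g00010 and tetur08g01320, with log2 ratios of −0.37, −0.12, −0.35, −0.35 and −0.22. The CPM of tetur13g03300 was 113 to 128 in curcumin libraries, against 139 to 173 in solvent libraries, and that of tetur21g00570 was 275 to 308, against 316 to 332. The CPM of tetur19g00940 was 216 to 259.7 in curcumin libraries, against 264 to 341.5 in solvent libraries, that of tetur67g00010 was 30.2 to 37.9, against 40.5 to 46.6, and that of tetur08g01320 was 383 to 495, against 506 to 556. Of these 5 genes tetur13g03300 and tetur67g00010 stayed apart under all 4 scalings, and tetur67g00010 had the shortest model of all members, 192 bp.

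**Figure D4:**
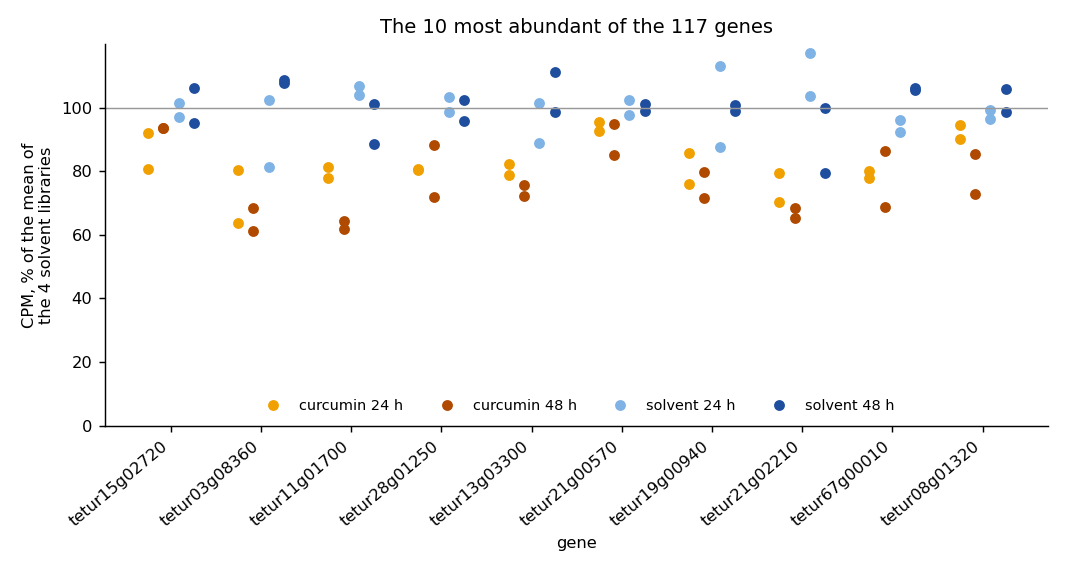
CPM in each library as a percentage of the mean of the 4 solvent libraries, for the 10 members with the highest mean RPKM in solvent libraries, in falling order of RPKM from left to right, with 1 point per library. The curcumin points of tetur11g01700 lie near 80% at 24 h and below 65% at 48 h, and those of tetur21g00570 lie just below its solvent points.

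The members together took a small part of each library. They held 0.798%, 0.790%, 0.759% and 0.754% of the estimated reads in curcumin libraries, against 0.957%, 0.953%, 0.908% and 0.972% in solvent libraries, a difference that follows from how they were chosen. The median ratio was lowest at the lowest levels. Among the 32 members under 20 CPM in solvent libraries the median log2 ratio was −0.39, and it was −0.24 in the 36 members from 20 to 50 CPM, −0.22 in the 31 from 50 to 100 CPM and −0.27 in the 18 at 100 CPM or more. Counting error is larger where reads are few, and its part in these medians was not tested. The share of eligible genes that were lower in all curcumin libraries was 1.59%, 1.41%, 1.95% and 1.2% over the same 4 levels.

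In CPM the median difference of the members was of similar size at both times, and under the other scalings it was larger at 48 h. The median log2 ratio in CPM was −0.26 at 24 h and −0.28 at 48 h, against −0.06 and 0.01 over the 7961 genes. With TMM factors the medians of the members were −0.19 at 24 h and −0.28 at 48 h, and with DESeq2 size factors −0.19 and −0.28. In RPKM, with 1 added before the log2, they were −0.18 and −0.27. In 7 genes the ratio was under −0.5 at both times, and these were tetur01g13260, tetur15g00370, tetur01g03160, tetur05g00780, tetur24g00220, tetur03g04460 and tetur03g06730. In 64 of the 117 genes, 54.7%, the ratio was lower at 48 h than at 24 h, against 41.0% of the 7961 genes. Both times share no library, but the rule used all 8.

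**Figure D5:**
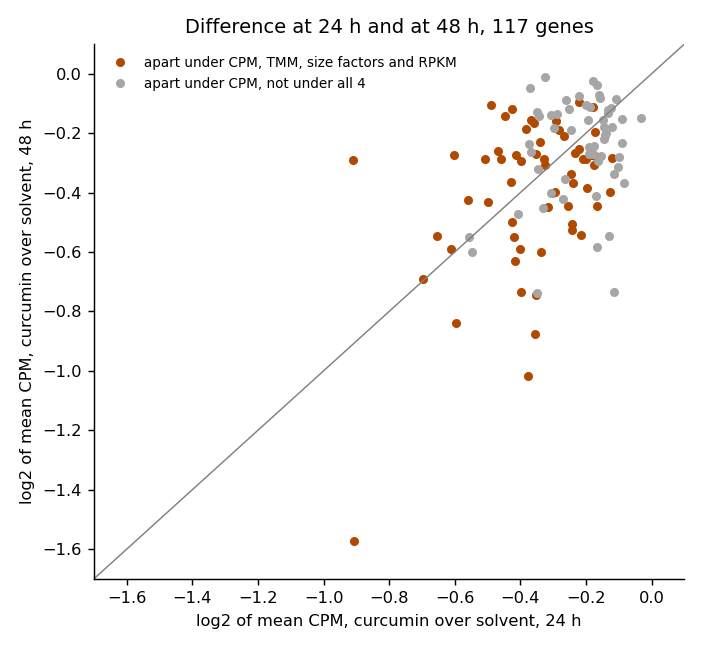
The log2 ratio of mean CPM, curcumin over solvent, at 24 h (horizontal axis) and at 48 h (vertical axis), with 1 point for each of the 117 genes, in orange for the 60 genes apart under all 4 scalings and in grey for the other 57, and a line of equal ratios. Points lie on both sides of the line, with tetur01g13260 lowest at −0.91 and −1.57 and tetur32g01270 far above the line at −0.91 and −0.29.

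Whether the members changed further with time was tested on contrasts the rule did not use directly. The test was edgeR's quasi-likelihood test on 12227 genes with the 4 groups in one fit, with Benjamini-Hochberg adjustment over all genes. The rule bounds both contrasts, since it keeps every curcumin library below every solvent library and favours genes with little spread within a treatment. The p-values rest on the spread between the 2 libraries of each group. The fit draws each gene's spread towards a trend over all genes tested, so the p-values do not rest on a gene's own libraries alone.

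Curcumin at 48 h was first compared with curcumin at 24 h. At a false discovery rate of 0.05, 0 of the 117 members were called, where 52 of the 12227 genes, 0.425%, were. An unadjusted p under 0.05 was found for 3 members, 2.56%, against 12.8% of all genes. DESeq2 also called 0 members, of 198 genes in all. The median log2 fold change was −0.02 in the members and 0.00261 over all genes tested, and 67 members, 57.3%, were below 0, against 49.6% of all genes. A smaller share of the members than of all genes had a low p with time, and no conclusion is drawn from it. The rule bounds this contrast and picked genes with little spread. The 12227 genes also include genes with too few reads for the rule.

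The 3 members with an unadjusted p under 0.05 were all lower at 48 h. The CPM of tetur11g06020 was 8.14 and 8.90 in curcumin 48 h libraries, against 12.0 and 12.9 in curcumin 24 h libraries, with 14.0 to 16.96 in solvent libraries. Its log2 fold change by edgeR was −0.53 (SE 0.19, adjusted p = 0.299). For tetur11g01700, whose values are given above, edgeR's log2 fold change was −0.33 (SE 0.13, adjusted p = 0.344). The CPM of tetur39g00540 was 45.04 and 46.5 in curcumin 48 h libraries, against 53.8 and 56.6 in curcumin 24 h libraries, with a narrow 61.03 to 63.6 in solvent libraries. Its log2 fold change by edgeR was −0.26 (SE 0.11, adjusted p = 0.365). None of the 3 passed the threshold.

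By size alone, the lowest fold changes with time within curcumin were those of tetur01g13260, tetur11g06020 and tetur28g01960. By edgeR they were −0.54 (SE 0.32, adjusted p = 0.527) for tetur01g13260 and −0.45 (SE 0.20, adjusted p = 0.394) for tetur28g01960. The highest were those of tetur25g00460, tetur03g04460 and tetur02g02370. The CPM of tetur25g00460 was 10.1 and 10.1 in curcumin 48 h libraries, against 7.80 and 7.52 in curcumin 24 h libraries, and edgeR's log2 fold change was 0.41 (SE 0.19, adjusted p = 0.431). For tetur03g04460 it was 0.28 (SE 0.16, adjusted p = 0.498) and for tetur02g02370 0.25 (SE 0.16, adjusted p = 0.579) by the same edgeR test. In tetur02g02370 the fold change came with 1 low library, since its CPM was 33.6 and 33.3 in curcumin 48 h libraries, against 33.1 and 23.8 in curcumin 24 h libraries.

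The difference between the effects of curcumin at 48 h and at 24 h was tested as the interaction in the same fit. At a false discovery rate of 0.05 edgeR called 0 members and 0 of the 12227 genes, 0%. An unadjusted p under 0.05 was found for 4 members, 3.42%, against 991 genes, 8.11%, of all tested, and DESeq2 called 0 members, of 55 genes in all. The median log2 difference of effects was −0.11 in the members, with a median SE of 0.19. Over all genes it was 0.01, with a median SE of 0.29, and over the 7961 genes it was −0.004. The difference of effects was below 0 in 78 members, 66.7%, against 49.2% of all genes. Scaled by library size alone, the median was −0.04 in the members and 0.08 over all genes. All genes tested include genes with too few reads for the rule, and the rule favours little spread. No conclusion is drawn from these shares.

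The 4 members with an unadjusted p under 0.05 all had a larger difference at 48 h. By edgeR the difference of effects was −0.71 (SE 0.28, adjusted p = 0.570) in tetur28g01960, −0.58 (SE 0.24, adjusted p = 0.586) in tetur08g00390 and −0.35 (SE 0.15, adjusted p = 0.601) in tetur39g00540. In tetur04g02450, which has a long model of 5929 bp, it was −0.69 by edgeR (SE 0.28, adjusted p = 0.586). The CPM of tetur04g02450 was 8.73, 9.92, 7.5 and 7.63 in curcumin libraries, against 10.1, 10.1, 12.8 and 12.4 in solvent libraries. At 24 h its treatments were nearly equal, with a log2 ratio of −0.12, and at 48 h the ratio was −0.73. The largest difference in the other direction was 0.54 by edgeR (SE 0.35, adjusted p = 0.731), in tetur32g01270.

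Solvent libraries of the 2 times stood close to each other in these genes. The log2 ratio of solvent 48 h over solvent 24 h had a median of −0.01 in the members and −0.07 over the 7961 genes, and solvent 48 h was above solvent 24 h in 55 members, 47.0%, against 37.1% of the 7961 genes. No test was made of it, since the rule limits it.

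Length and position were described without a test. The gene models had a median length of 1282 bp, with quartiles of 843 and 2220 bp, against a median of 1552 bp over the 7961 genes, and 11 members, 9.40%, had models of 500 bp or less, against 6.27%. The members were spread over 39 of the 157 scaffolds that hold eligible genes. The scaffolds with the highest numbers were scaffold 2 with 11 members, 9.40% of them against 7.96% of the eligible genes, scaffold 3 with 9, 7.69% against 5.12%, and scaffold 1 with 8, 6.84% against 8.86%. In 2 places members lay near each other by their numbers. The pair tetur06g03280 and tetur06g03300 had CPM of 9.24 to 11.2 and 77.9 to 86.1 in curcumin libraries, against 11.8 to 14.8 and 86.5 to 110.5 in solvent libraries, and the pair tetur04g03470 and tetur04g03510 had 131 to 149 and 13.0 to 17.03 CPM, against 149 to 167 and 17.3 to 19.97 CPM. The functions of the members other than the one described above are not used here, since the files give identifiers alone.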

How the data were processed

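The authors sequenced poly(A) RNA of 8 libraries as single-end Ion Proton reads, although the labels name an Illumina library protocol. They discarded adaptor, duplicate and low-quality reads and used T-Map 3.4.1 to place the rest on the genome of T. urticae. The authors deposited an estimated count (expected count, not whole) per gene, without scaling for depth, and beside it the RPKM, which they scaled by gene length and by mapped reads. Removal of duplicate reads can lower the level of short and abundant genes. Neither the program behind the estimated counts nor the gene model release is given in the sources used here. Genes missing from a list were taken as 0. Columns of other samples numbered 0.

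CPM was computed from the sum of each file. For the tests, the estimated counts were rounded to whole reads and fitted with edgeR 4.0.16 under R 4.3.3 by the robust quasi-likelihood method, after filterByExpr and TMM, with 4 groups and 4 residual degrees of freedom, and the script was tested on simulated data. No p-value was computed for curcumin against solvent. Python 3.11.15 with pandas 2.3.3 and numpy 2.4.6 gave the other values. Alternatives were DESeq2 1.42.0, limma 3.58.1 on log2(RPKM + 1) and log2(RPKM + 0.1) where the mean RPKM reached 0.5, no filter on low counts, library size only, the rule's length limit, the curcumin libraries alone, the replicate number as a block, other scalings and read minimums of 20 and 100 in the rule, and each library left out in turn. Depth was 8033325 to 8617973 reads per library, and counting errors cover counting only.

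The members, the gene lists and the rule for named genes were chosen with earlier results of these data known. Named were the 10 members with the lowest ratio, the 10 with the highest RPKM in solvent libraries, members in the study's lists of changed genes, the 3 highest and 3 lowest with time in curcumin, members called in a test, the 3 genes just inside and outside the rule, and members within 50 identifier numbers of each other. Genes with a low unadjusted p, those with the widest gaps, and those low at both times were named after their values were seen. Lists by function and sequence were not used, since no gene table was at hand.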

Additional observations from a re-analysis of the deposited data

How the results depend on the processing

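By edgeR, DESeq2 and limma, 0 members were called with time in curcumin or for the difference of effects, in the main analysis and in each alternative run, including the 8 fits without 1 library. The lowest adjusted p of a member over the settings was 0.171 for time (DESeq2) and 0.340 for the difference of effects. Counts over all genes moved more. With time in curcumin they were 52 by edgeR, 198 by DESeq2, 19 for gene models past the rule's length limit, 41 with library size only, 22 with no filter, 32 and 24 by limma with 1 and 0.1 added, and 0 to 64 without 1 library. For the difference of effects they were 0 by edgeR, 55 by DESeq2, 23 and 13 by limma, and 0 to 3 without 1 library. The labels do not say whether a replicate number marks a shared experiment. The deviations of same-numbered libraries had r from −0.105 to 0.323 over 6 pairs of groups, above 0.1 in 4 of them, which leaves the pairing unsettled. With the replicate number as a block 0 members were called in both tests, with 72 genes called over time and 0 for the difference.

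The rule gave 117 genes, and 107 under TMM, 103 under DESeq2 size factors, 98 in RPKM, 149 at 20 reads and 93 at 100 reads. Without 1 library it gave 156 to 831. The median log2 ratio of the members was −0.27, and −0.30 to −0.25 without 1 library and −0.24 to −0.21 under the other scalings. At 24 h it was −0.26, and −0.27 to −0.22 and −0.20 to −0.18. At 48 h it was −0.28, and −0.32 to −0.21 and −0.29 to −0.27. With 2 libraries per group, small differences with time are not detectable at the spread seen here, where the median SE of a member's log2 fold change was 0.14.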
